A study of Sus scrofa with 6 samples.

Results

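The genes described here encode the enzymes of the citric acid cycle, the steps that feed pyruvate and fatty acids into it, the mitochondrial and peroxisomal oxidation of fatty acids, and the PPARA and PPARGC1A regulators of that programme. Of 42 such genes, 25 were named by their symbol on the array, on 90 of its 43603 probes. All 90 probes had a signal well above background on at least 3 of 6 arrays and so belonged to the 25013 probes tested. A further 10 genes, on 13 probes, were named through a description, synonym or accession in the files. They are SUCLA2, SUCLG2, ACADVL, ETFDH, ACAA1, CPT2, CROT, ACOX2, HADHB and PPARGC1A, and they stand outside the counts unless stated. No probe was used for IDH3G, OGDH, FH, PDHB, ECI1, ACAA2 or ETFB.

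RNA came from the renal cortex of Large White pigs aged 3 months, with 1 kidney of a different pig per array. In the ischemia group (n = 3) the vessels were clamped and the kidney was removed and held clamped for 60 min at 37 °C. It was then rinsed with cold UW (University of Wisconsin) solution, made for preserving organs, and stored for 24 h at 4 °C. Control kidneys (n = 3) were sampled and frozen at removal. Warm ischemia, flush and cold storage were applied as 1 sequence, so their parts in a difference cannot be told apart, and no kidney was reperfused. Each of the 3 slides held 1 array of each group: ischemia 2 with control 1 on slide 1, ischemia 3 with control 2 on slide 2, and ischemia 1 with control 3 on slide 3. All ischemia arrays lay at position 3 and all control arrays at position 4 of their slide, so the effects of position and of group cannot be told apart. Between 52.6% and 61.4% of spots per array were well above background.

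In the mitochondrion, acetyl-CoA made from pyruvate or from fatty acids is condensed with oxaloacetate by citrate synthase and oxidised around the cycle, and the electrons pass to the respiratory chain. Long-chain fatty acids are first joined to CoA, then carried into mitochondria as carnitine esters, and shortened in repeated rounds of dehydrogenation, hydration, dehydrogenation and thiolysis. The proximal tubule, the main tubule segment of the cortex, draws most of its energy from this route, and the receptor PPARA with its coactivator PPARGC1A maintains the expression of many of these enzymes there.

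The probes that the results turn on are 60-base DNA oligonucleotides of the array design. The probes of citrate synthase and of the pyruvate dehydrogenase subunit PDHA1 stand for the cycle and its entry, and that of PPARA for the regulators. For PANK1 and ACADM, whose groups did not overlap, the first 30 bases are shown. Places are base positions of the probe's start in its transcript, as the array design gives them.
CS, from base 1074: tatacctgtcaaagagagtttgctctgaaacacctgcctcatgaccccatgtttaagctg
PDHA1, from base 1137: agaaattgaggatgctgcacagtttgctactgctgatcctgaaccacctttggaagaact
PPARA, from base 1216: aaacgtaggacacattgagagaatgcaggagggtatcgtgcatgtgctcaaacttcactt
PANK1, from base 1253: tccttctagctgatcttttactcttggatt
ACADM, from base 1690: gccagtgattttgtagacttaagggtttta

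The expression of none of these genes was separated between ischemia and control kidneys at the adjusted threshold. Only PANK1 passed the unadjusted level, a count near the share over all probes. Values are log2 of the signal minus the 75th percentile of the array, differences are ischemia minus control with the standard error of the fit, and each gene is its brightest probe. With limma, 0 of 25 genes passed a Benjamini-Hochberg adjusted p under 0.05, against 0.004% of all probes tested (1 of 25013). At an unadjusted p under 0.05 there was 1 gene of 25, PANK1, on the lower side, against 6.3% of all probes in either direction and 3.31% on the lower side. All 3 ischemia values lay above all 3 control values in 1 gene, ACADM (5.89% of all probes), and below them in 1 gene, PANK1 (5.02% of all probes). These shares are near the background. The differences of the 25 genes had a median of 0.17 and lay above 0 in 17, whereas the median over all probes tested was -0.04. The plot of differences by gene shows intervals that span 0 for every gene except PANK1.

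**Figure D1:**
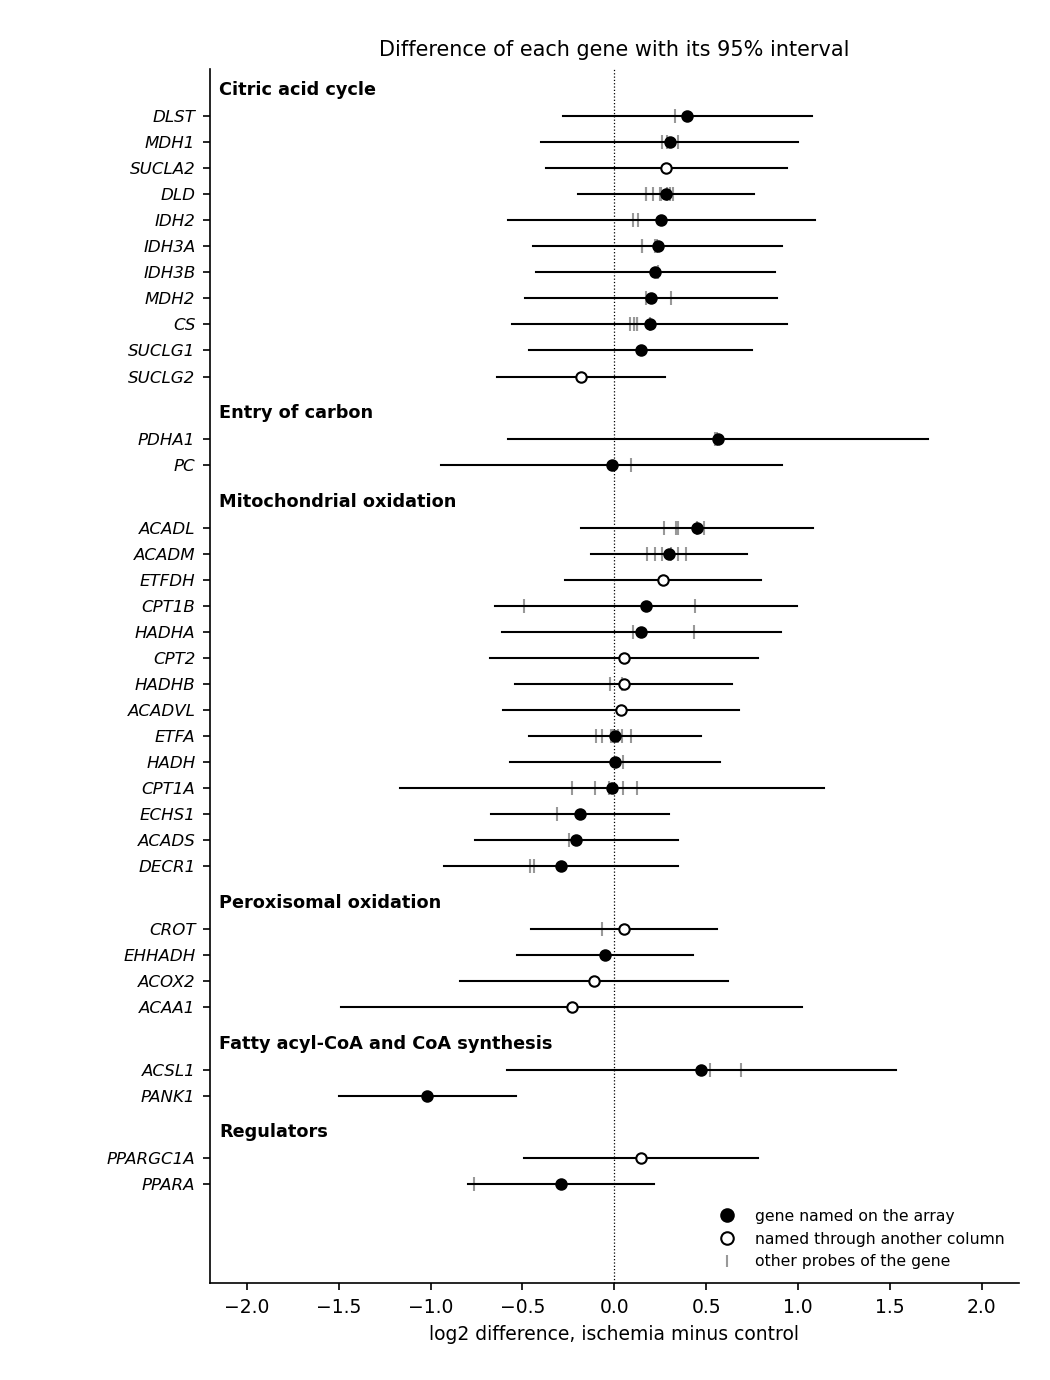
Log2 difference, ischemia minus control, of each gene with its 95% confidence interval (points and lines, n = 3 per group), grouped by role. Grey ticks are the other probes of the same gene. The 9 cycle genes named on the array lie between 0.14 and 0.40, and the interval of PANK1 alone lies clear of 0.

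The 9 cycle genes named on the array all had differences above 0, between 0.14 and 0.40, with a median of 0.24, and none passed the test. CS, citrate synthase, which opens the cycle, had 5.43, 5.44 and 4.51 in ischemia kidneys, against 5.24, 4.98 and 4.59 in control kidneys. Its groups overlapped, with ischemia 3 below every control, and the difference was 0.19 ± 0.32 (SE, n = 3 per group). The 7 probes of CS gave 0.085 to 0.194.

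DLST and DLD are subunits of the oxoglutarate dehydrogenase complex, and DLD serves the pyruvate dehydrogenase complex as well. DLST had 5.16, 5.38 and 4.46 in ischemia kidneys, against 4.87, 4.58 and 4.38 in control kidneys, a difference of 0.40 ± 0.29. DLD had 4.54, 4.43 and 4.13 in ischemia kidneys, against 4.03, 3.98 and 4.25 in control kidneys, a difference of 0.28 ± 0.20. In both genes ischemia 1 and ischemia 2 exceeded all controls and ischemia 3 did not, and limma's adjusted p was 0.909 for each. The 9 probes of DLD gave 0.17 to 0.32. In 1 of them the groups did not overlap, on the higher side, as in 5.89% of all probes tested.

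MDH1, the cytosolic malate dehydrogenase of the malate-aspartate shuttle, had 7.52, 8.02 and 6.89 in ischemia kidneys, against 7.18, 7.13 and 7.21 in control kidneys. The control values lay within a narrow range and the ischemia values on both sides of it, with a difference of 0.30 ± 0.30. MDH2, the mitochondrial malate dehydrogenase that closes the cycle, had a difference of 0.20 ± 0.29. Among the isocitrate dehydrogenases the differences were 0.26 ± 0.36 for IDH2, the NADP-dependent mitochondrial enzyme, 0.24 ± 0.29 for IDH3A and 0.22 ± 0.28 for IDH3B, subunits of the NAD-dependent enzyme of the cycle. SUCLG1, the alpha subunit of succinyl-CoA ligase, had 0.14 ± 0.26. Of its beta subunits, named through descriptions, SUCLA2, the ADP-forming one, had 0.28 ± 0.28 and SUCLG2, the GDP-forming one, had -0.18 ± 0.19.

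The cycle genes shared an order of arrays rather than a separation of groups. Ischemia 3 was the lowest of the 3 ischemia arrays in 9 of 9 cycle genes, against 36.3% of all probes tested, and ischemia 2 was the highest in 8 of 9, against 35.2% of all probes. Control 1 was the highest control in 7 of 9, against 44.2% of all probes. The median over the 9 genes, each set to its mean over 6 arrays, was 0.32, 0.44 and -0.39 on the ischemia arrays and 0.14, -0.19 and -0.40 on the control arrays. Ischemia 3 thus stood at the level of the lowest control. Part of this order was seen in other lists given below. Ischemia 3 was lowest of the ischemia arrays in the medians of other cycle genes (0.12, 0.27 and -0.33). The same held for other oxidation (0.05, 0.06 and -0.11) and other peroxisomal genes (0.17, 0.18 and -0.30). Ischemia 3 was highest over mitochondrial oxidation (-0.06, -0.02 and 0.07), the 4 peroxisomal genes (-0.29, -0.12 and 0.29) and other regulators (-0.10, -0.19 and -0.05). Within slides the median difference of the 9 cycle genes was 0.35 on slide 1, -0.24 on slide 2 and 0.58 on slide 3. On these slides 9, 1 and 9 of 9 genes were above 0. Without ischemia 3 the median was 0.50, and 7 of 9 cycle genes no longer overlapped between groups, as did 24.3% of all probes in either direction. DLST, MDH1 and MDH2 then had an unadjusted limma p under 0.05, as did 7.89% of all probes in either direction, and adjusted p of 0.583, 0.611 and 0.631. Ischemia 3 was picked for its low values in these genes, so these counts and p-values cannot serve as a test. Without ischemia 2 the median was 0.04.

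**Figure D2:**
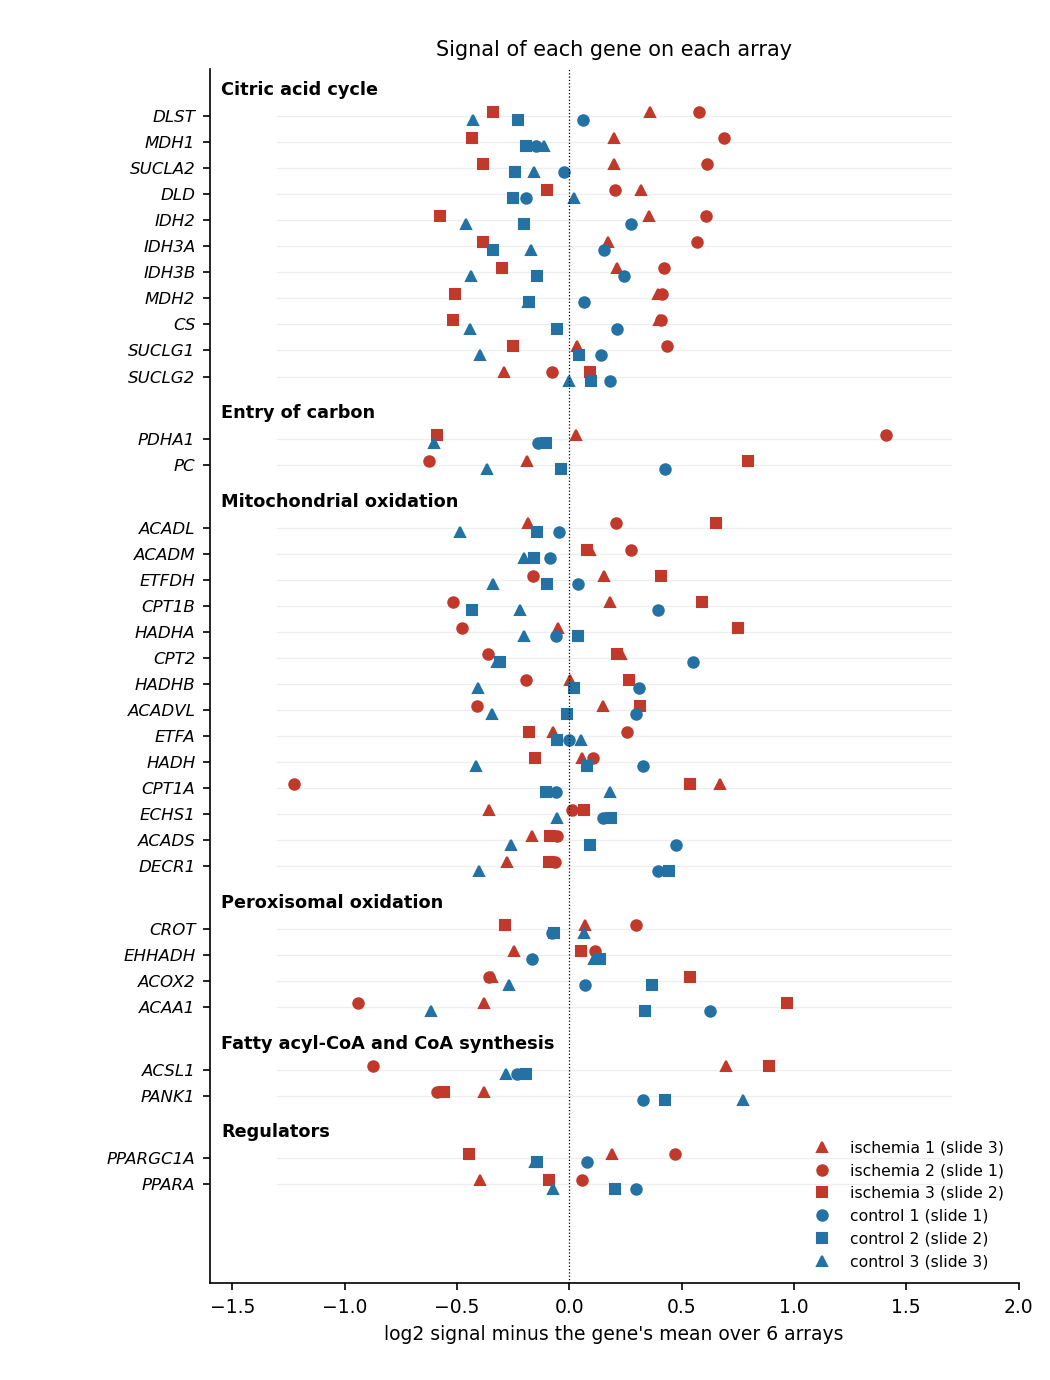
Log2 signal of each gene on each array, minus the mean of that gene over 6 arrays (horizontal axis), with ischemia arrays in red above control arrays in blue and 1 marker shape per slide. In the cycle genes named on the array, ischemia 3 (red squares) lies lowest of the ischemia arrays, and in CPT1A, ACSL1 and PC ischemia 2 (red circle) lies lowest of all.

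**Figure D3:**
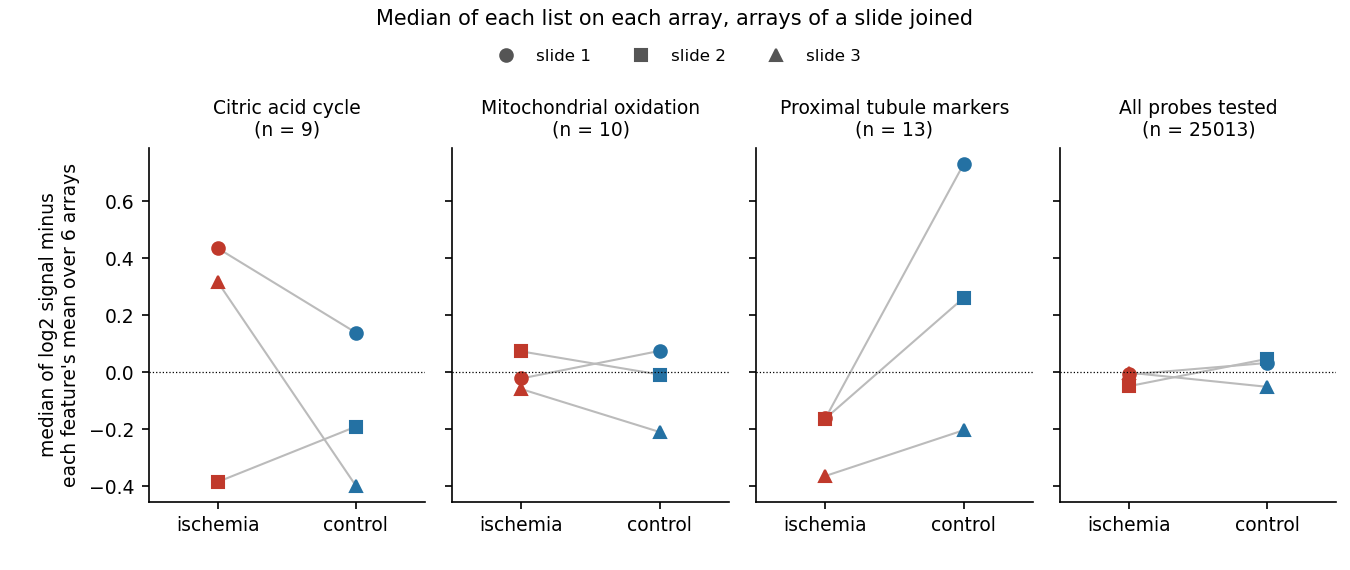
Median over the genes of a list, or over all probes tested, of the log2 signal minus the feature's mean over 6 arrays (vertical axis), for ischemia and control arrays, with arrays of the same slide joined. The cycle medians run from -0.39 to 0.44 in ischemia and from -0.40 to 0.14 in control arrays, and the proximal tubule marker medians are below control on slides 1, 2 and 3.

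Pyruvate enters as acetyl-CoA through pyruvate dehydrogenase or as oxaloacetate through pyruvate carboxylase. PDHA1, the catalytic alpha subunit of pyruvate dehydrogenase, had 5.18, 6.56 and 4.56 in ischemia kidneys, against 5.01, 5.04 and 4.55 in control kidneys. Ischemia 2 stood apart as the highest of 6 arrays, on this and on each of the 3 PDHA1 probes, while ischemia 1 and ischemia 3 were close to control arrays. The difference was 0.57 ± 0.49, and 0.003 without ischemia 2. PC, pyruvate carboxylase, had a difference of -0.015 ± 0.396 and within-slide differences of -1.05, 0.83 and 0.18.

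The activation of fatty acids needs CoA and an acyl-CoA synthetase. PANK1, a pantothenate kinase that catalyses the first step of CoA synthesis, had -1.31, -1.52 and -1.48 in ischemia kidneys, against -0.60, -0.50 and -0.15 in control kidneys. All 3 ischemia arrays lay below all controls, and the within-slide differences were -0.92, -0.98 and -1.15. The difference was -1.02 ± 0.20, a signal 2.02-fold lower, with an unadjusted limma p of 0.00149 and an adjusted p of 0.428. PANK1 rested on 1 probe, which was well above background on all 6 arrays. Leaving out each array in turn gave -1.11 to -0.88. ACSL1, the long-chain acyl-CoA synthetase of liver, fat and kidney, had 4.57, 3.00 and 4.77 in ischemia kidneys, against 3.64, 3.68 and 3.60 in control kidneys. Ischemia 1 and ischemia 3 lay above every control, and ischemia 2 was the lowest of 6 arrays on 3 of 3 ACSL1 probes. Its difference was 0.47 ± 0.45, and 1.03 without ischemia 2 (unadjusted limma p of 0.00272, adjusted p of 0.826). In that setting 4.89% of all probes had an unadjusted p under 0.05. The setting was picked because ischemia 2 stood apart in ACSL1, so its p-value cannot serve as a test.

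**Figure D4:**
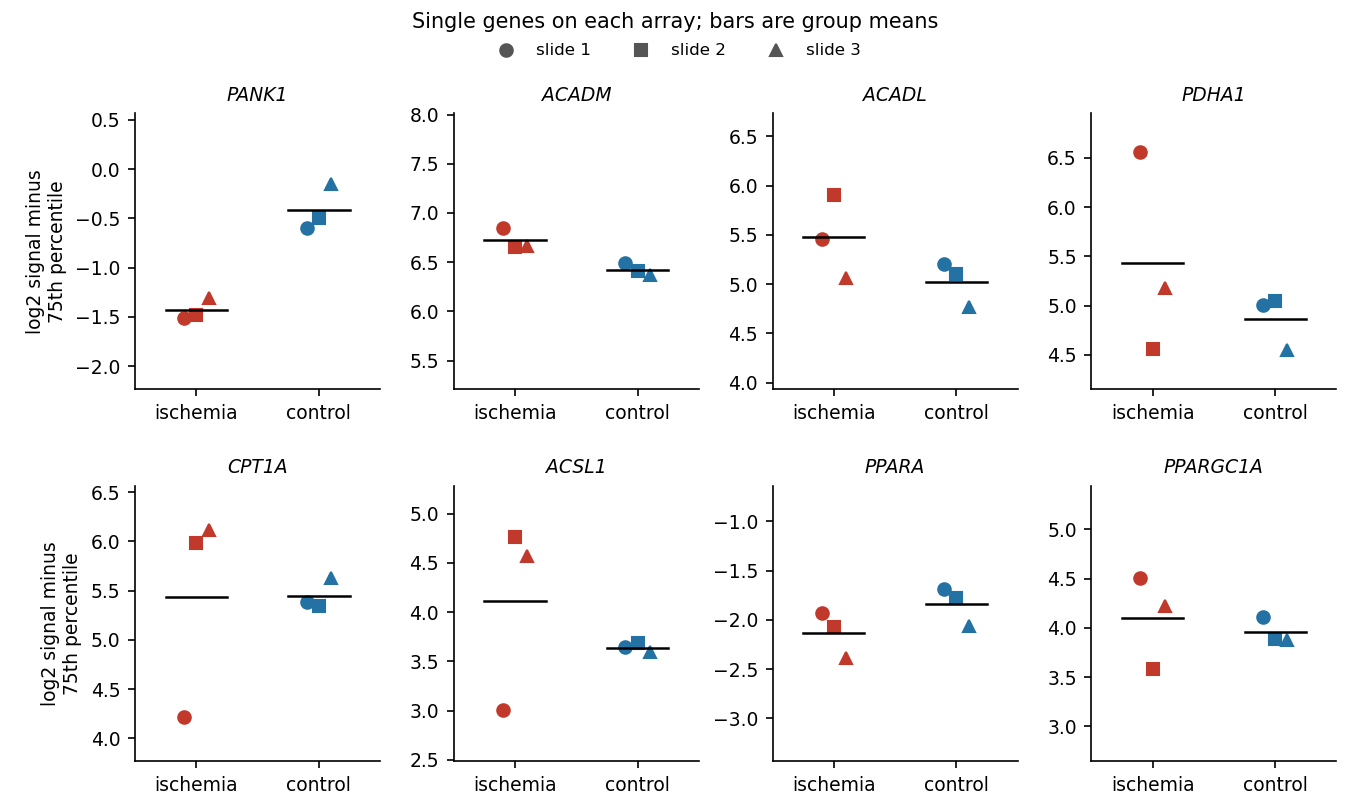
Log2 signal minus the array's 75th percentile (vertical axis) of single genes on the ischemia and control arrays, with 1 marker shape per slide and bars at the group means. Every panel spans the same height. PANK1 and ACADM do not overlap between groups, and PDHA1, CPT1A and ACSL1 each have ischemia 2 far from the other ischemia arrays.

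The 10 genes of mitochondrial oxidation named on the array had a median difference of 0.005, with 6 above 0 and 4 below, and none passed the test. Carnitine palmitoyltransferases make the carnitine esters that cross the mitochondrial membranes. CPT1A, the form of liver and kidney that sets the rate of entry, had 6.11, 4.22 and 5.98 in ischemia kidneys, against 5.38, 5.34 and 5.62 in control kidneys. Ischemia 2 lay below and the other ischemia arrays above every control, and the difference was -0.012 ± 0.491. Ischemia 2 was the lowest of 6 arrays on 6 of 6 CPT1A probes, which are repeat readings of the same RNA. Without ischemia 2 the difference was 0.60 (unadjusted limma p of 0.0357, adjusted p of 0.979), where 4.89% of all probes had an unadjusted p under 0.05. As for ACSL1, the array was picked for its value in this gene, so the p-value cannot serve as a test. CPT1B, the muscle form, had 0.17 ± 0.35, and its 3 probes disagreed, at -0.49, 0.17 and 0.44. CPT2, the inner-membrane enzyme, had 0.053 ± 0.311.

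Acyl-CoA dehydrogenases carry out the first step of each round and differ in the chain length they accept. ACADM, for medium chains, had 6.67, 6.85 and 6.65 in ischemia kidneys, against 6.49, 6.41 and 6.37 in control kidneys. The groups did not overlap, the within-slide differences were 0.36, 0.24 and 0.29, and the difference was 0.30 ± 0.18, a signal 1.23-fold higher (unadjusted limma p of 0.141, adjusted p of 0.895). All 7 probes of ACADM lay above 0, at 0.18 to 0.39, but the groups overlapped on those from bases 927, 1128 and 1219. Within slide 2 the probes from bases 927 and 1219 gave -0.16 and -0.12. ACADL, for long chains, had 5.07, 5.46 and 5.90 in ischemia kidneys, against 5.20, 5.11 and 4.76 in control kidneys. Ischemia 1 lay among the controls and the other ischemia arrays above them, the difference was 0.45 ± 0.27, and its 6 probes gave 0.27 to 0.49. ACADS, for short chains, had -0.21 ± 0.23, and ACADVL, for very long chains, 0.036 ± 0.274.

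Electron-transferring flavoprotein takes the electrons from these dehydrogenases and passes them to ubiquinone through ETFDH. ETFDH had 4.82, 4.51 and 5.08 in ischemia kidneys, against 4.71, 4.57 and 4.33 in control kidneys. Ischemia 2 lay among the controls, and the difference was 0.27 ± 0.23. ETFA, the alpha subunit of the flavoprotein, had 0.005 ± 0.199, and its 8 probes gave -0.10 to 0.09.

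DECR1, the dienoyl-CoA reductase needed for polyunsaturated chains, had 2.61, 2.83 and 2.80 in ischemia kidneys, against 3.29, 3.33 and 2.49 in control kidneys. Control 3 lay below all ischemia arrays on the brightest probe, whose difference was -0.29 ± 0.27. The other DECR1 probes gave -0.44 and -0.46, each with groups that did not overlap. Over the 90 probes of genes named on the array, groups did not overlap in 6 on the higher side and 4 on the lower side. The shares over all probes tested were 5.89% and 5.02%. ECHS1, the enoyl-CoA hydratase of short chains, had -0.19 ± 0.21. The trifunctional protein of long chains had 0.15 ± 0.32 for its alpha subunit HADHA and 0.050 ± 0.252 for its beta subunit HADHB. HADH, the hydroxyacyl-CoA dehydrogenase of shorter chains, had 0.005 ± 0.244.

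Peroxisomes shorten very long and branched chains before mitochondria finish them. EHHADH, the bifunctional enzyme and the peroxisomal gene named on the array, had -0.052 ± 0.204. ACAA1, the peroxisomal thiolase, had -0.23 ± 0.53, with within-slide differences of -1.56, 0.63 and 0.23. ACOX2, the oxidase of branched chains and bile acid intermediates, had -0.11 ± 0.31, and CROT, which exports shortened chains as carnitine esters, had 0.053 ± 0.216. The median over the 4 genes was -0.081.

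PPARA, the fatty acid-activated receptor, had -2.39, -1.93 and -2.08 in ischemia kidneys, against -1.69, -1.78 and -2.06 in control kidneys. Control 3 lay among the ischemia values, the within-slide differences were -0.24, -0.29 and -0.33, and the difference was -0.29 ± 0.22 (unadjusted limma p of 0.221, adjusted p of 0.913). The other PPARA probe gave -0.76 ± 0.35, with groups that overlapped and within-slide differences of 0.31, -1.27 and -1.33. PPARGC1A had 4.22, 4.50 and 3.59 in ischemia kidneys, against 4.11, 3.89 and 3.88 in control kidneys. Its ischemia values lay on both sides of the controls, with ischemia 3 lowest as in the cycle genes, and the difference was 0.14 ± 0.27.

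Probes of the same gene gave similar differences. Of 22 genes with more than 1 tested probe, 18 had all probes on the same side of 0, and the exceptions were CPT1A, CPT1B, ETFA and PC. The range between the probes of a gene had a median of 0.14. From the probe nearest the start to that nearest the end of the transcript the difference changed by a median of 0.035, upward in 13 genes and downward in 9. Identical probes of CS, from base 210, and of IDH3A differed by at most 0.15 and 0.09 on any array. On 1 of those CS probes the ischemia arrays spanned 1.82 to 2.79, and on the other 1.86 to 2.88. The plot of cycle probes by their place in the transcript shows no probe above 0.40.

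**Figure D5:**
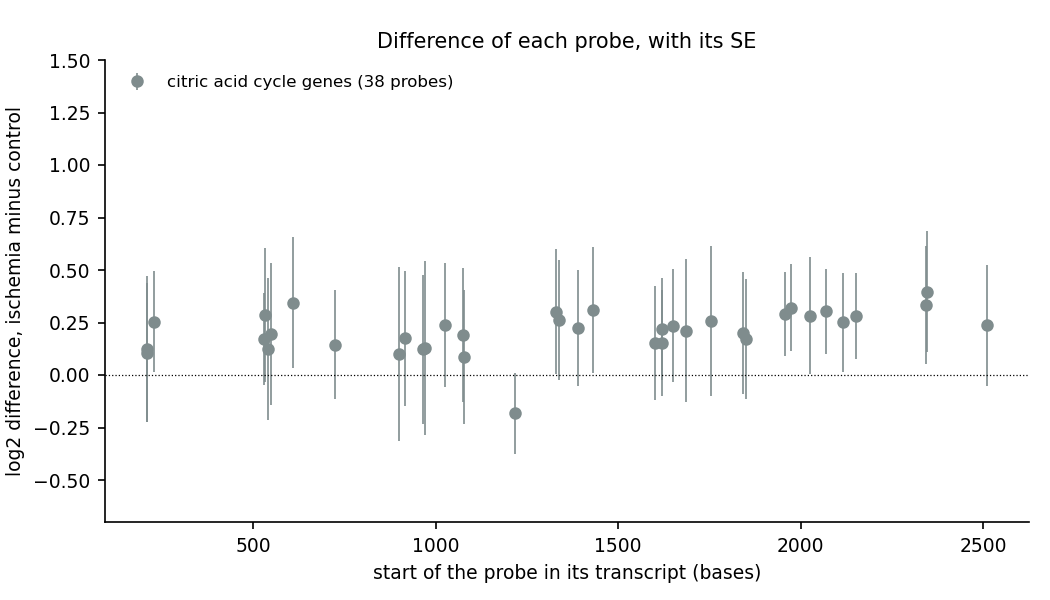
Log2 difference, ischemia minus control, of each tested probe of the citric acid cycle genes (grey circles), with its SE (lines), against the start of the probe in its transcript in bases. The probes lie between -0.18 (SUCLG2, the only one below 0) and 0.40.

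Other genes of the same pathways were taken from fixed lists, and 0 of them passed the adjusted threshold. Among other cycle genes, regulators of pyruvate dehydrogenase and carriers, 14 of 26 were measured, with 8 above 0, 6 below and a median of 0.05. PDK4, the kinase that inactivates pyruvate dehydrogenase, had 5.63, 6.38 and 7.78 in ischemia kidneys, against 4.47, 3.87 and 5.75 in control kidneys. Control 3 exceeded ischemia 1, the within-slide differences were 1.91, 3.91 and -0.12, and the difference was 1.90 ± 0.65 (unadjusted limma p of 0.0211, adjusted p of 0.721). The 9 probes of PDK4 gave 1.88 to 2.27. MPC2, a subunit of the mitochondrial pyruvate carrier, had 0.31 ± 0.24, DLAT, the acetyltransferase of pyruvate dehydrogenase, 0.39 ± 0.35, and SDHD, a succinate dehydrogenase anchor, 0.23 ± 0.23. The within-slide medians of this list were 0.12, -0.31 and 0.39, negative on slide 2 as for the cycle genes above.

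Of 34 other genes of fatty acid uptake, activation and oxidation, 19 were measured, with 9 above 0, 10 below and a median of -0.02. SLC27A2, a fatty acid transporter and very-long-chain acyl-CoA synthetase, had 0.49 ± 0.21 (unadjusted limma p of 0.0489). ECI2, an enoyl-CoA isomerase, had -0.62 ± 0.27, CD36, a fatty acid translocase, 0.42 ± 0.25, and ACSL5, an acyl-CoA synthetase, 0.35 ± 0.21. The groups did not overlap in 2 of these 19 genes, SLC27A2 and ACSL5, on the higher side, against 5.89% of all probes. Of 16 other peroxisomal genes, 7 were measured, with a median of 0.01. HSD17B4, the second bifunctional enzyme, had 0.38 ± 0.25, PHYH, which starts phytanate oxidation, -0.38 ± 0.27, PEX11A, a factor of peroxisome division, 0.24 ± 0.27, and CAT, catalase, -0.27 ± 0.30. Of 18 other regulators and CoA enzymes, 10 were measured, with 9 below 0 and a median of -0.17. NRF1, an activator of nuclear genes for mitochondrial proteins, had -0.43 ± 0.20, SIRT3, a mitochondrial deacetylase, -0.46 ± 0.30, RXRA, the partner of PPARA, -0.27 ± 0.24, and PPARD, the paralogue of PPARA, -0.19 ± 0.21. The groups did not overlap in 1 of these 10 genes, NRF1, on the lower side, against 5.02% of all probes.

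The labelled tissue was checked against markers of the cell types of the cortex. Of 16 proximal tubule markers 13 were measured, all well above background on 6 arrays, and 12 of 13 lay below 0, with a median of -0.64. At an unadjusted limma p under 0.05 there were 5 of 13, all on the lower side, against 3.31% of all probes on that side, and none passed the adjusted threshold. Their summed linear signal, relative to the 75th percentile, was 1049 to 1209 in ischemia kidneys, against 1120 to 1638 in control kidneys, ranges that overlap. SLC34A1, the phosphate transporter of that segment, had -0.64 ± 0.27 on its brightest probe and 0.35 on the other. The within-slide medians of these markers were -0.998, -0.64 and -0.29 on slides 1, 2 and 3. Fewer cells of a type and less RNA per cell cannot be told apart in these samples. The summed signals of the other cell types overlapped between groups too, and some single markers, named here after their values were seen, did not. They were SLC22A6 (-1.03 ± 0.36) of proximal tubule, TEK (0.78 ± 0.29) and KDR (-0.39 ± 0.20) of endothelium, CD163 (1.42 ± 0.32) and CD247 (-1.33 ± 0.23) of leukocytes, COL1A2 (-1.64 ± 0.30) of fibroblasts and MYLPF (-2.34 ± 0.26) of muscle. Over all probes tested, the groups did not overlap in 5.89% on the higher side and 5.02% on the lower side. Of the measured markers, 3 lay above 0 and 2 below in endothelium, and 1 above and 5 below in leukocytes. In fibroblasts 1 lay above and 3 below, in muscle 2 above and 1 below, and in distal nephron 2 above and 2 below. The 3 probes of MYLPF ran from -2.34 to -0.01, and none of these markers passed the adjusted threshold. For 4 of 10 distal nephron markers the summed signals were 20.6 to 49.3 in ischemia kidneys, against 17.6 to 31.2 in control kidneys. For 5 of 6 endothelial markers they were 20.4 to 31.3 in ischemia kidneys, against 23.6 to 24.8 in control kidneys. Leukocyte markers, 6 of 8 measured, summed to 11.7 to 12.1 in ischemia kidneys, against 10.9 to 13.9 in control kidneys. Fibroblast markers, 4 of 6, summed to 25.5 to 37.4 in ischemia kidneys, against 23.8 to 28.4 in control kidneys. Glomerular markers, 2 of 5, summed to 0.788 to 1.58 in ischemia kidneys, against 0.534 to 0.893 in control kidneys. Muscle markers, 3 of 5, summed to 28.1 to 40.9 in ischemia kidneys, against 29.1 to 32.5 in control kidneys. Adipocyte markers, 2 of 5, summed to 1.47 to 2.51 in ischemia kidneys, against 1.65 to 1.89 in control kidneys. The part of cell composition in the differences above was not tested.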

How the data were processed

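Total RNA of 6 renal cortex samples was labelled with Cy3 and hybridised to 1 Agilent array each, per the labels. The deposited scanner files hold spot intensity, corrected for background within each array and not scaled between arrays, per the file headers. The headers give Feature Extraction 10.10.1.1. The submitters' processing notes give version 11.5.1.1 of it, limma, and R 2.15.2. A value table deposited by the authors holds log2 values. How they scaled it between arrays was not given in the sources used here, so it served as an alternative.

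Values were the processed signal in log2 minus the array's 75th percentile, without control and outlier spots, averaged over replicate spots. Probes well above background on at least 3 of 6 arrays, with values on at least 5, were tested two-sided with lmFit and eBayes of limma 3.58.1 (R 4.3.3), and p-values were adjusted by Benjamini-Hochberg over 25013 probes. The procedure was tested on simulated data with planted changes and independent noise for each probe. Variation shared by the probes of an array or slide was not simulated, so its effect was not tested. No spot was saturated. The number of arrays, 3 per group, limits the precision, and an exact permutation test could not pass the threshold at this size, so none is given.

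The members and lists were chosen with earlier results of these data known. Members named on the array were described by their brightest probe. Values of all arrays are given for the 10 members of smallest unadjusted p, for members whose groups did not overlap, and for CS, CPT1A, PPARA and PPARGC1A. MDH1, the tenth of the genes named on the array, was added. Of each list of other pathway genes up to 4 of smallest p are named. Marker lists are given as counts and sums with a defining marker. The markers whose groups did not overlap were added after their values were seen. The values of PDK4 on each array are given because of its size, a choice also made after its values were seen. Gene names came from the array design, its descriptions and a RefSeq gene table (Sscrofa11.1). No coordinates are given. A result on an item withheld from this work is not reported here. Probe sequences are those of the array design.

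The labels number the samples of each group, and the kidneys came from different pigs. Samples of the same number did not deviate together, so the numbers were not treated as pairs. Slide was tested as a block. The other alternatives were median centring, quantile normalization, normexp (offset 50), the deposited table, no filter or a stricter filter on dim probes, the outlier spots included, a variance trend, averaging the probes of each gene, and each array left out in turn.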

Additional observations from a re-analysis of the deposited data

How the results depend on the processing

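The count of 0 of 25 genes past the adjusted threshold was the same in each of the 17 alternatives, the deposited table included, where 12 of the 25 genes had a value. PANK1 stayed at an unadjusted p under 0.05 in all of them, as did 3.19% to 13.7% of all probes in either direction. Of 581 gene and setting pairs, 531 kept their direction and 50, from 17 of 35 genes, turned. With the sample number as a replicate block, 1 gene was at an unadjusted limma p under 0.05, against 4.86% of all probes. The adjusted p of PANK1 was then 0.892. Correlations between same-numbered samples were -0.35, -0.17 and -0.05, so the numbers gave no pairs, whereas those between arrays of the same slide were 0.34, 0.10 and 0.33 on slides 1, 2 and 3. With slide as a block the count was also 1, against 9.26% of all probes, and the adjusted p of PANK1 was 0.289. Normexp gave 2 genes at an unadjusted p under 0.05, against 6.60% of all probes.

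Median centring and the deposited table moved the median of all probes to 0.11 and 0.14, against -0.04. The cycle median minus that of all probes was 0.28 as reported, 0.28 with median centring and 0.31 in the deposited table. The median of mitochondrial oxidation was 0.15 with median centring, over 10 genes, and 0.27 in the deposited table, over 4 genes. The scaling and the genes both differ in that table, where the cycle median was over 5 genes and that of peroxisomal oxidation, 0.19, over 1. Genes turned sign as follows, and the cause was not tested beyond the shift just given. In the deposited table the differences were 0.10 for ACOX2, 0.19 for EHHADH, 0.013 for ECHS1, 0.25 for CPT1A and 0.057 for SUCLG2. Median centring gave 0.13 for PC, 0.039 for ACOX2, 0.10 for EHHADH and 0.14 for CPT1A. Quantile normalization gave 0.0096 for PC, 0.0072 for CPT1A and 0.0045 for ECHS1, and normexp gave 0.037 for PC and 0.063 for CPT1A. The mean of all probes gave -0.0073 for CROT, -0.0039 for ETFA and 0.038 for PC.

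Leaving out each array in turn gave 1 to 4 genes at an unadjusted p under 0.05, against 3.19% to 11.7% of all probes, and 2 to 10 genes whose groups did not overlap. The 10 came without ischemia 3, where 24.3% of all probes did not overlap. Without ischemia 2 there were 6, against 18.3% of all probes, and without control 3 there were 7, against 23.1%. The median of mitochondrial oxidation then ranged from -0.14 (without ischemia 3) to 0.094 (without ischemia 2). Single genes whose sign turned ranged from -0.78 to 0.18 (ACAA1), -0.13 to 0.25 (ACADVL), -0.41 to 0.046 (ACOX2), -0.35 to 0.60 (CPT1A), -0.081 to 0.47 (CPT1B), -0.095 to 0.34 (CPT2), -0.081 to 0.21 (CROT), -0.15 to 0.057 (EHHADH), -0.12 to 0.095 (ETFA), -0.20 to 0.17 (HADH), -0.19 to 0.43 (HADHA), -0.14 to 0.22 (HADHB), -0.42 to 0.30 (PC), -0.055 to 0.40 (PPARGC1A) and -0.037 to 0.31 (SUCLG1). The probe used for each of the 35 genes was well above background on all 6 arrays.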
